A study of Mus musculus with 20 samples.

Results

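The transcripts of 10 histone lysine demethylases, Kdm1a, Kdm2a, Kdm2b, Kdm3a, Kdm3b, Kdm4a, Kdm4b, Kdm4c, Kdm5b and Kdm6b, were followed through RNA immunoprecipitation sequencing (RIP-Seq) of tagged Tet proteins in mouse embryonic stem cells (ESCs). They were taken by gene symbol from the 23284 genes listed in every library, without regard to their values. All 10 were above 0 in all 20 libraries and were among the 13710 genes tested. In RIP-Seq an antibody pulls down a protein with the RNA attached to it, and the recovered RNA (IP) is sequenced beside RNA that was not immunoprecipitated (input).

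The libraries came from 3 knock-in (KI) lines made by CRISPR-Cas9n editing of WT ESCs, and all 3 carried the same Flag, HA and Twin-Strep tags at the C terminus of the endogenous protein. Tet1-KI had tagged Tet1 (2 IP and 2 input libraries), Tet2-KI had tagged Tet2 (4 and 4), and Tet2dRBD-KI had tagged Tet2 without its RNA-binding domain (4 and 4). Cells grew on gelatin in medium with serum and leukemia inhibitory factor, the IP used an anti-Flag antibody on cytoplasmic extract, and the input was total RNA. The methods describe IgG control reactions, which were not analysed here, so that RNA held by beads or antibody and RNA held by Tet cannot be told apart, nor can differences between cytoplasmic and total RNA. Tagged lines were picked as clones, so each line's differences may include those of its clone. The study describes the RIP-Seq as repeated on biological samples, but no label says which libraries came from separate cultures, and p-values measure the spread between these libraries.

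Totals lay between 21078995 and 37576638 expected counts per library, estimated read counts that need not be whole. The 8 ESC markers summed to between 14438 and 18794 TPM in the inputs, while markers of other cells were low but not absent. The 4 endoderm markers summed to between 5.1 and 93.9 TPM in the inputs, the 4 mesoderm markers to between 1.8 and 5.8, the 4 neural markers to between 26.2 and 148 and the 4 fibroblast markers to between 10.7 and 63.2. In the IPs the sums were 4.2 to 104.8, 1.8 to 6.4, 56.9 to 322 and 14.5 to 48.4 TPM. T, Mesp1, Kdr, Pax6 and Col3a1 were under 1 TPM in every input. The part of such cells in the results was not tested. Gene-level counts do not show the tag or the deleted domain, so the levels of Tet1 and Tet2 do not check the labels. The numbering of the deposited data placed replicate 1 of both Tet2 lines in library set 1, replicate 2 of both in set 2, and all other libraries in set 3, and replicates 1 and 2 stood apart from 3 and 4 for many members.

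Histone lysine demethylases remove methyl groups from the tails of histones and so reverse the work of histone methyltransferases. All members but Kdm1a carry a Jumonji C (JmjC) domain and use iron, oxygen and 2-oxoglutarate, the chemistry that Tet enzymes use on 5-methylcytosine, whereas Kdm1a (LSD1) is a flavin-dependent amine oxidase. In ESCs these enzymes are known for keeping active and silent chromatin apart, with Kdm1a acting at enhancers and Kdm2b bringing a Polycomb complex to CpG islands.

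Levels in the input were compared in TPM, which accounts for transcript length. Kdm1a (78.0 ± 21.8 TPM, SD, n = 10 inputs), Kdm5b (65.7 ± 37.6), which removes methyl groups from the promoter mark of active genes, and Kdm2b (59.4 ± 16.0) were the most abundant. The others followed in the order Kdm4a (21.3 ± 7.91), Kdm6b (20.3 ± 8.20), Kdm3b (18.0 ± 6.75), Kdm4b (13.3 ± 8.31), Kdm2a (13.2 ± 2.98), Kdm3a (12.6 ± 4.12) and Kdm4c (11.8 ± 5.48). The levels thus fell into an upper group of 3 and a lower group of 7. Between neighbours in this order, only Kdm2b over Kdm4a (a mean log2 difference of 1.48 ± 0.47, SD, higher in 10 of 10 inputs) and Kdm3b over Kdm4b (0.56 ± 0.42, higher in 9 of 10) differed by more than the SD of the difference.

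**Figure D1:**
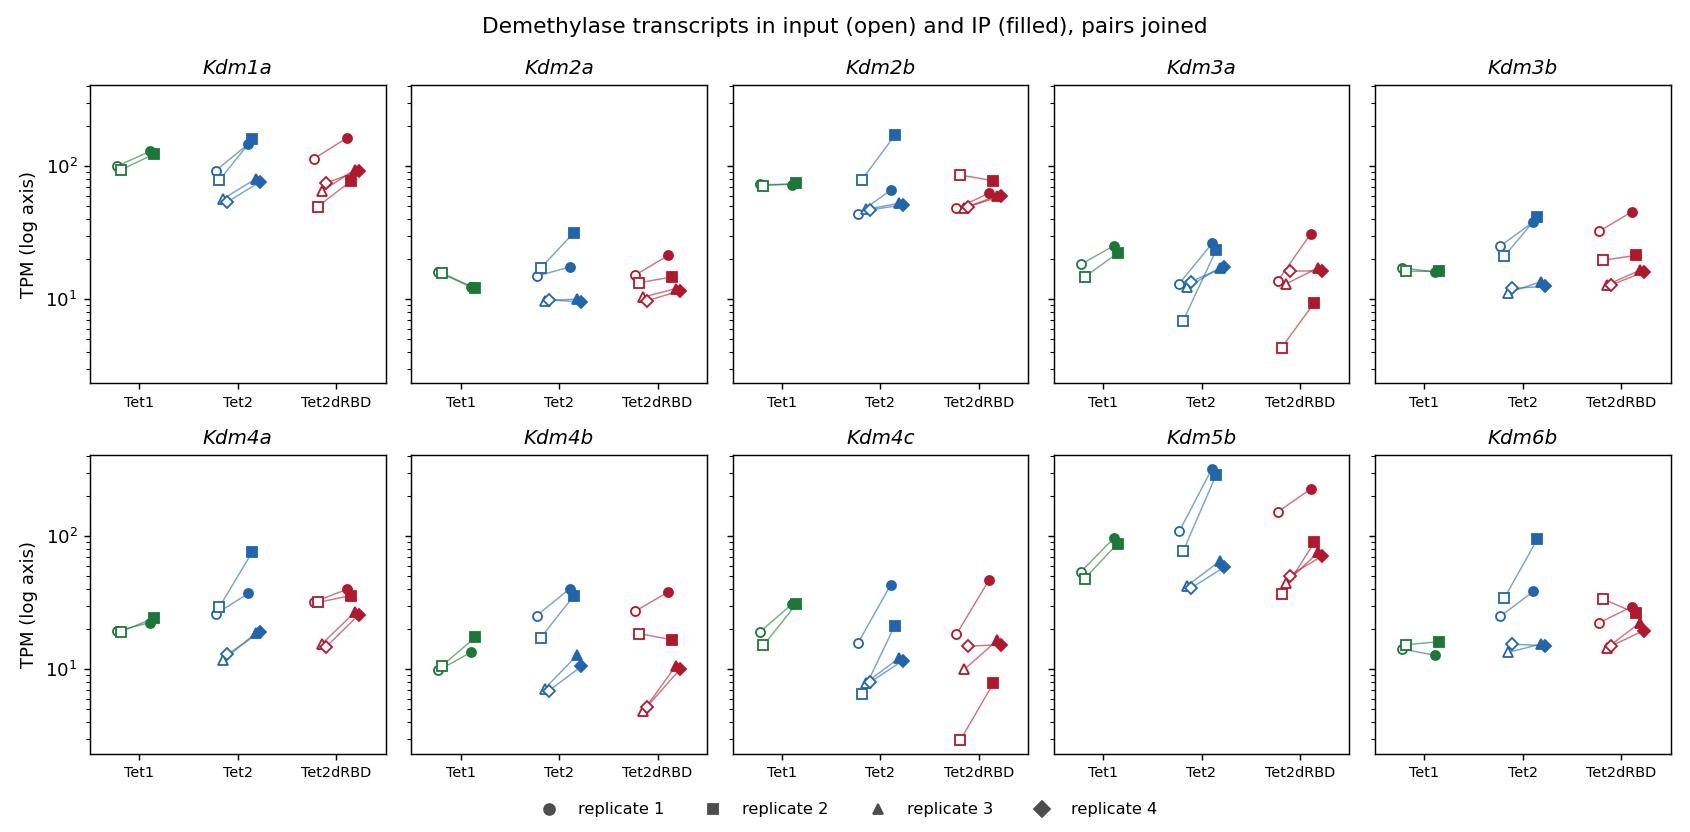
TPM of each demethylase transcript on a log axis, with 1 panel per gene, open symbols for input, filled symbols for IP, lines joining the pairs and symbol shapes for replicate numbers. IP lay above input in all 10 pairs for Kdm1a, Kdm3a, Kdm4a, Kdm4c and Kdm5b. The Tet2 replicates, which come from 3 library sets, spread far more than the Tet1 replicates, which share a single set.

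The members with the highest and lowest IP over input, Kdm5b, Kdm4c and Kdm2a, are shown here by a stretch of their coding sequence. Because Tet enzymes act on cytosine, the longest unbroken run of C and T within a coding exon was looked up. The gencode annotation of mm9 was used, and coding exons under 30 bases and runs across exon junctions were left out. Each window is given 5′ to 3′ in the sense of the transcript, with the run in capitals.
Kdm5b: atatttacaCTCTCCCTTCTCTactggaca
Kdm4c: tcccaagataCCTTCCCCCCTgccagaaag
Kdm2a: ccacgacccggTTTCTCCCCggggtatggt
The first lies in coding exon 24 of 27 of Kdm5b (chr1:136523904-136523933, plus strand), the second in coding exon 10 of 21 of Kdm4c (chr4:73980625-73980654, plus strand) and the third in coding exon 17 of 21 of Kdm2a (chr19:4324895-4324924, minus strand). The runs were 13, 11 and 9 bases long. Of 22238 coding genes, 22.8% held a run at least as long as that of Kdm5b, 47.0% one as long as that of Kdm4c and 77.0% one as long as that of Kdm2a, so none of the 3 was rare. These windows describe the sequence and are not binding sites. The longest runs among the members were those of Kdm3b (16 bases, reached by 6.43% of genes) and Kdm6b (15 bases, 9.6%). Their mean log2 of IP over input in the 10 pairs was 0.30 and 0.31, against 0.93 for Kdm5b, 0.89 for Kdm4c and 0.14 for Kdm2a. A relation between run length and this ratio was not tested. Stretches of 30 bases shared with the coding sequence of another gene made up at most 0.386% of any member's coding sequence (Kdm1a), and untranslated parts were not searched.

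IP and input were set against each other first as log2 of TPM + 1 in IP over TPM + 1 in input, for each pair. Each library's total is fixed in TPM, and over 11784 expressed genes the median of this ratio lay between 0.01 and 0.38 in the 10 pairs, with means of 0.08 in Tet1, 0.23 in Tet2 and 0.18 in Tet2dRBD. The members' median was 0.32 in Tet1, 0.70 in Tet2 and 0.49 in Tet2dRBD, or 0.24, 0.47 and 0.32 after the median of all expressed genes was taken off. IP exceeded input in all 10 pairs for 5 members, Kdm1a, Kdm3a, Kdm4a, Kdm4c and Kdm5b, whereas 22.4% of all genes tested did so. By line, IP exceeded input in every pair for 6 members in Tet1 (50.9% of genes), 8 in Tet2 (46.5%) and 7 in Tet2dRBD (31.8%). Every IP lay above every input for 6 members in Tet1 (44.8%), 1 in Tet2 (10.8%) and 0 in Tet2dRBD (4.24%). In Tet1, Kdm2a lay below its input in both pairs (-0.36 and -0.35), as did Kdm3b by less (-0.10 and -0.01).

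**Figure D2:**
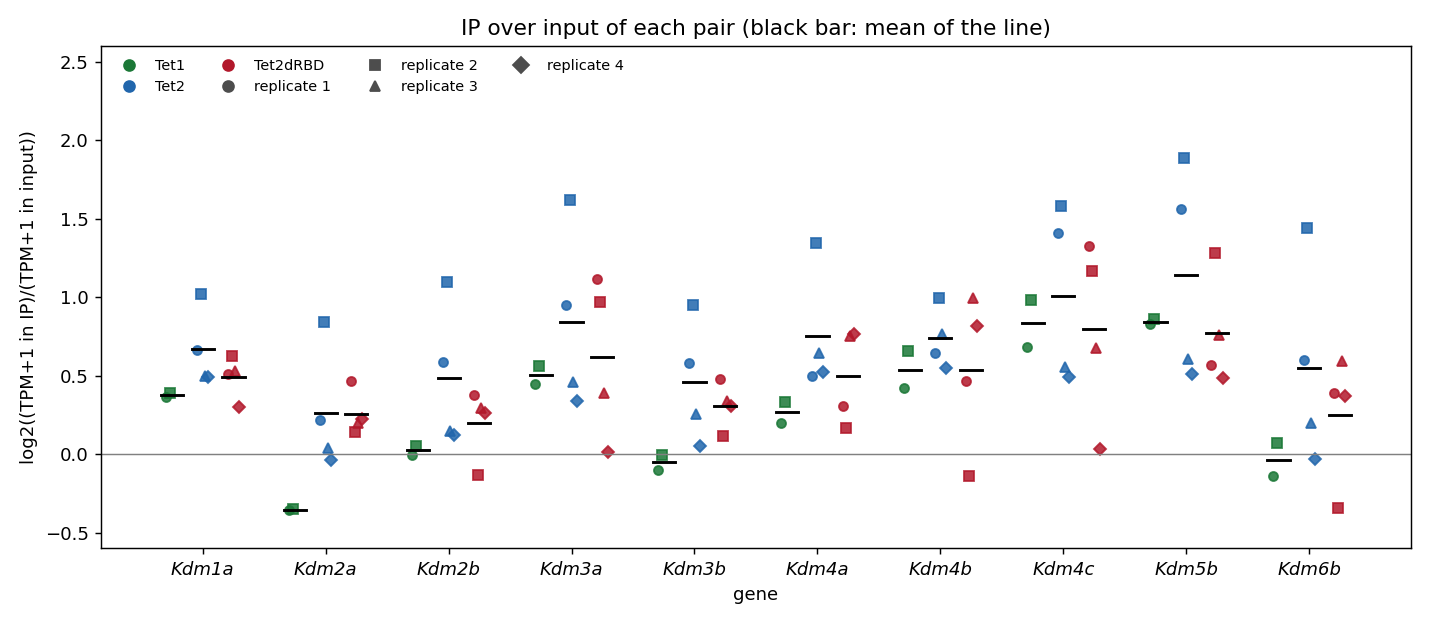
log2 of IP over input (TPM + 1) for each gene and pair, with colours for the lines, shapes for the replicate numbers and black bars for line means. Replicate 2 of Tet2 (blue squares) was the highest Tet2 pair for all 10 genes, and both Tet1 pairs of Kdm2a lay at -0.36 and -0.35.

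Tests used rounded expected counts in edgeR with trimmed-mean (TMM) scaling, a block for each pair and 1 IP effect per line, with Benjamini-Hochberg adjustment over all 13710 genes and a threshold of 0.05. In Tet2, 5 of 10 members were higher in IP, against 14.6% of all genes tested, and none was lower, against 18.5% (33.1% in either direction). The 5 were Kdm5b, Kdm4c, Kdm4a and Kdm4b, all JmjC enzymes, and Kdm1a. In Tet1 no member passed the threshold, against 5.9% of all genes, 2.72% higher and 3.18% lower (3 members had an unadjusted p under 0.05, as did 3224 of the 13710 genes), and in Tet2dRBD none passed, against 19.5%, 7.4% higher and 12.1% lower (2 members had an unadjusted p under 0.05, as did 4858 genes).

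Kdm5b had the highest ratio in Tet2. Its TPM in the Tet2 IPs was 324, 288, 65.1 and 58.5 in replicates 1 to 4, against 109, 77.4, 42.5 and 40.8 in the inputs. IP exceeded input in every pair, but the IPs of replicates 3 and 4 lay below the inputs of replicates 1 and 2, so the groups overlapped. The fitted log2 of IP over input was 0.83 (SE 0.21, 1.78-fold, adjusted p = 0.0134). In Tet1 the IPs reached 96.7 and 88.1 TPM against inputs of 54.0 and 48.2, with no overlap, and the fitted log2 was 0.71 (SE 0.30, adjusted p = 0.181). In Tet2dRBD the IPs held 227, 90.8, 76.0 and 71.2 TPM against 153, 36.7, 44.6 and 50.6, and the fitted log2 was 0.51 (SE 0.21, adjusted p = 0.114). The direction was therefore upward in all 10 pairs, while only the Tet2 value passed the threshold.

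Kdm4c, which removes trimethyl marks of heterochromatin, was the least abundant member in the input. Its fitted ratio was second to that of Kdm5b in Tet2 and the highest among the members in Tet1 and Tet2dRBD. Its Tet2 IPs held 43.4, 21.3, 12.1 and 11.6 TPM and its inputs 15.7, 6.47, 7.90 and 7.96. The fitted log2 was 0.78 (SE 0.23, adjusted p = 0.0271), although the IPs of replicates 3 and 4 lay below the input of replicate 1. In Tet1 the IPs were at 31.1 and 30.9 TPM over inputs of 19.0 and 15.1, giving a fitted 0.72 (SE 0.33, adjusted p = 0.212). In Tet2dRBD the IPs were at 47.3, 7.81, 16.5 and 15.3 TPM over 18.3, 2.93, 9.96 and 14.9, giving a fitted 0.61 (SE 0.24, adjusted p = 0.0914). Replicate 4 of Tet2dRBD was the pair nearest to its input, at a log2 ratio of 0.03.

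Kdm4a and Kdm4b, paralogs of Kdm4c that act on the same marks, had smaller ratios. Kdm4a held 37.2, 76.2, 18.9 and 19.0 TPM in the Tet2 IPs and 26.0, 29.4, 11.7 and 12.9 in the inputs, a fitted log2 of 0.46 (SE 0.14, adjusted p = 0.0253). Kdm4b held 40.2, 35.4, 12.8 and 10.5 TPM in the Tet2 IPs and 25.4, 17.3, 7.13 and 6.87 in the inputs, a fitted log2 of 0.47 (SE 0.16, adjusted p = 0.039). In these genes too the groups overlapped, because the levels of replicates 1 and 2 were above those of 3 and 4 in both IP and input. Their fitted values in Tet1 were 0.13 and 0.43 and in Tet2dRBD 0.24 and 0.31, none past the threshold.

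Kdm1a had the smallest of the 5 called effects. The Tet2 IPs held 147, 161, 80.9 and 76.3 TPM and the inputs 92.5, 78.7, 57.0 and 54.0, with a fitted log2 of 0.36 (SE 0.10, adjusted p = 0.0239). The IP of every pair was higher, and its log2 ratio varied little in Tet1 (0.37 and 0.39). Kdm3a, which removes the methyl mark of repressed chromatin and is induced by low oxygen, held 26.2, 23.2, 17.2 and 17.4 TPM in the Tet2 IPs and 13.1, 6.88, 12.2 and 13.6 in the inputs. It was the only member whose Tet2 IPs all lay above all Tet2 inputs, as 10.8% of all genes did, but the fitted log2 of 0.58 (SE 0.22, adjusted p = 0.0625) did not pass.

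**Figure D3:**
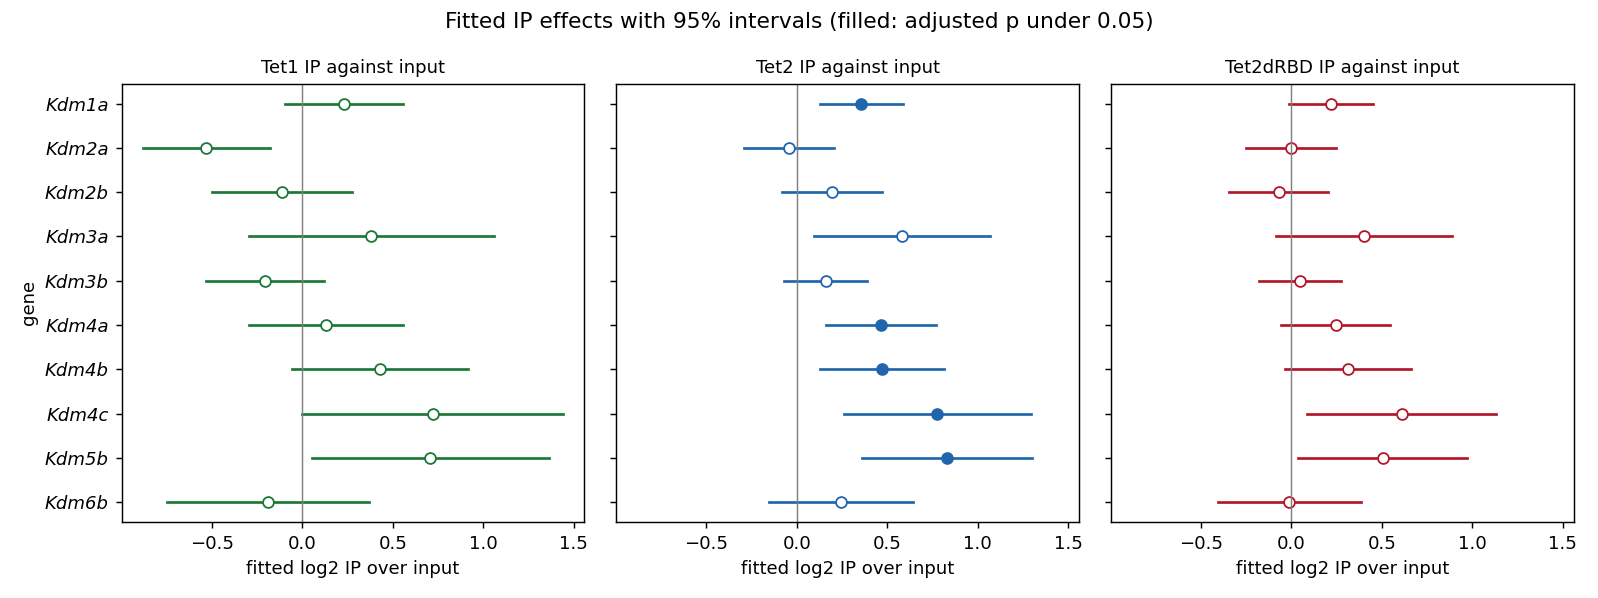
Fitted log2 of IP over input with 95% intervals for each gene in the 3 lines, filled circles marking an adjusted p under 0.05. The 5 filled circles are in Tet2, where the estimates run from -0.04 (Kdm2a) to 0.83 (Kdm5b).

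The remaining members did not pass in any line. Kdm2b and Kdm6b, the Polycomb-recruiting member and the member that removes the Polycomb mark, had fitted log2 values of 0.20 and 0.25 in Tet2, and Kdm3b had 0.16. Kdm2a, a reader of CpG islands, had -0.04 in Tet2 and -0.53 in Tet1 (SE 0.16, adjusted p = 0.0754), where the IPs held 12.3 and 12.1 TPM and the inputs 16.0 and 15.7. The sign in Tet2 depends on the scaling, because Kdm2a stood at 0.03 with library totals in place of TMM. In Tet2dRBD the same holds for Kdm2a, Kdm2b and Kdm6b, whose values were -0.0009, -0.07 and -0.01 with TMM and 0.14, 0.07 and 0.13 with library totals. The direction is therefore not settled for these genes in those lines.

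Leaving out a Tet2 pair changed the calls for Tet2 IP against input. Without Tet2 replicate 1, the calls were Kdm1a and Kdm4a, and without replicate 2 only Kdm5b. Without replicate 3 they were Kdm1a, Kdm4c and Kdm5b, and without replicate 4 they were Kdm4c and Kdm5b. Between 19.8% and 26.5% of all genes passed in these 4 fits. With replicates 3 and 4 of each Tet2 line, which are of the same library set, summed into 1 sample, Kdm4c and Kdm5b passed (23.4% of all genes), and Kdm1a, Kdm4a and Kdm4b did not. The fitted log2 of Kdm5b lay between 0.64 and 0.99 over the 10 fits that left out 1 pair each, and passed in 9 of them. Under limma on log2(TPM + 1), 8 members passed in Tet2 (43.1% of all genes) and 5 for Tet2dRBD IP against input (28.1%). Without the block for pairs none passed in any line, where 2.74% of all genes did in Tet2, 0.336% in Tet2dRBD and 0.0% in Tet1.

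The dependence on the RNA-binding domain was examined in the same fit by subtracting the IP effect of Tet2dRBD from that of Tet2. No member passed, against 0.0219% of all genes (3 genes, and 416 with an unadjusted p under 0.05). The estimate was above 0 for 9 of 10 members, with a median of 0.17 against -0.01 over all genes, and Kdm5b had the largest at 0.33 (95% interval -0.33 to 0.99). Of the lists described below, partners of LSD1 had a median of 0.16 (9 of 11 above 0) and opposing methyltransferases 0.13 (16 of 18). The medians were 0.08 for other JmjC and LSD family genes, 0.02 for other dioxygenases and -0.06 for 2-oxoglutarate supply. The interval for Kdm1a, the most precise among the called members, ran from -0.19 to 0.46.

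Taken by replicate number, the differences were uneven. At number 2 the log2 ratio in Tet2 exceeded that in Tet2dRBD for all 10 members, by 1.78 for Kdm6b, 1.23 for Kdm2b, 1.18 for Kdm4a and 1.14 for Kdm4b. At numbers 3 and 4 the same 4 genes lay below 0, between -0.40 and -0.10. Kdm5b differed by 0.99, 0.60, -0.15 and 0.02 at numbers 1 to 4. No member was higher in Tet2 at every number, whereas 6.19% of all genes tested were.

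**Figure D4:**
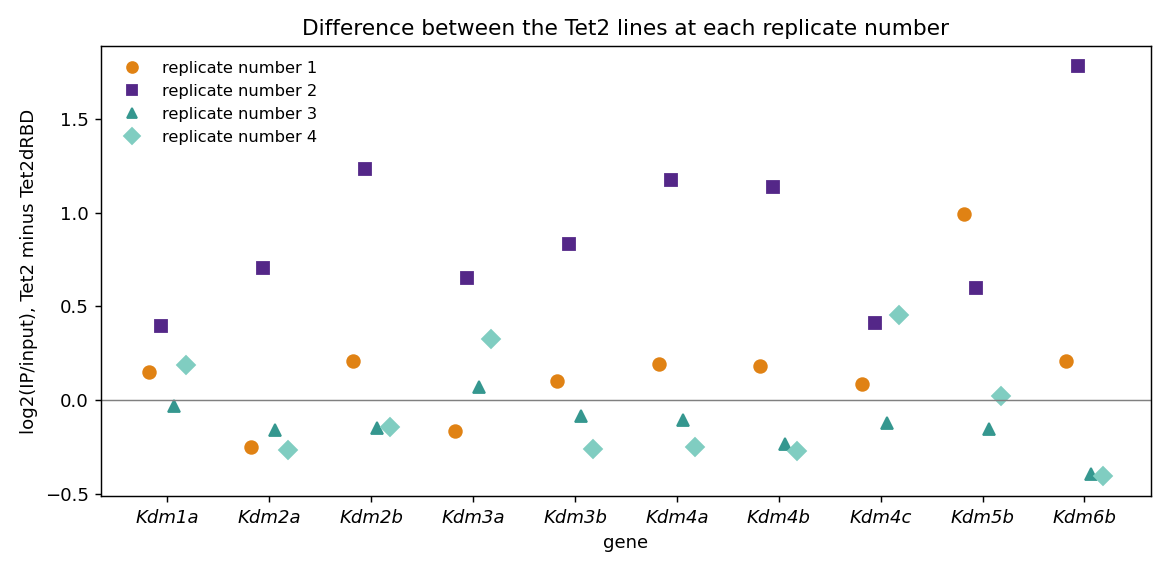
log2 of IP over input in Tet2 minus that in Tet2dRBD for each gene at replicate numbers 1 to 4. Number 2 lies above 0 for all 10 genes and is the highest number for 8 of them, with 1.78 for Kdm6b.

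Tet1 and Tet2 were compared in the same way. No member passed, and no gene at all did (0.0% of 13710, with 517 at an unadjusted p under 0.05). All 10 estimates of Tet1 minus Tet2 were below 0, with a median of -0.25 against 0.01 over all genes, and Kdm2a had the largest at -0.49 (95% interval -0.92 to -0.06, unadjusted p = 0.0299, adjusted p = 0.94). Of the lists described below, other JmjC and LSD family genes had a median of -0.26, partners of LSD1 -0.24 and opposing methyltransferases -0.325. The medians of other dioxygenases and of 2-oxoglutarate supply were -0.06 and 0.10. Within library set 3, which holds both Tet1 pairs and Tet2 replicates 3 and 4, the order turned for some members. Kdm5b had log2 ratios of 0.83 and 0.86 in Tet1 against 0.60 and 0.51 in Tet2, and Kdm4c 0.68 and 0.98 against 0.56 and 0.49. Kdm2a kept the lower ratio in Tet1, at -0.36 and -0.35 against 0.04 and -0.04.

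The lines also differed before immunoprecipitation. In a fit of the 10 inputs with the library set as a term, 6 of 10 members were higher in Tet1-KI than in Tet2-KI, against 17.5% of all 13310 genes tested, and none was lower, against 14.0% (31.5% in either direction). In that fit, Kdm2b was higher by 0.62 on the log2 scale (SE 0.09, adjusted p = 0.00111), Kdm4a by 0.57 (SE 0.09, adjusted p = 0.00165), Kdm2a by 0.60 (SE 0.10, adjusted p = 0.00211) and Kdm3b by 0.48 (SE 0.09, adjusted p = 0.00454). Kdm4b (0.64, adjusted p = 0.0232) and Kdm1a (0.63, adjusted p = 0.0253) passed with larger errors. The medians of the 5 other lists of enzymes described below were also above 0 in this comparison, between 0.32 and 0.46, against -0.01 over all genes. Markers of other cells differed between these inputs as well, in both directions. Of the 4 endoderm markers 2 were higher in Tet1-KI (Gata6 at 1.45, adjusted p = 0.0153, and Gata4 at 1.51, adjusted p = 0.0488), of 2 tested mesoderm markers 1 was higher (Eomes at 1.44, adjusted p = 0.00495) and 1 lower (Kdr at -3.18, adjusted p = 0.00137). Of the 4 neural markers 2 were higher and 1 lower, and of the 4 fibroblast markers 3 were lower, among them Thy1 at -1.48 (adjusted p = 0.00146). The part of such cells in the members' levels was not tested. In TPM, Kdm2b held 73.0 and 71.6 in the Tet1 inputs against 47.4 and 47.0 in Tet2 replicates 3 and 4 of the same set, and 43.8 and 79.2 in replicates 1 and 2. Both Tet1 inputs lay above both of these Tet2 inputs for 9 of 10 members, all but Kdm6b, as 44.6% of genes did.

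These calls depend on the library set. Without that term no member passed (0.406% of all genes did), and among the called members Kdm3b, Kdm4a and Kdm4b changed sign to -0.11, -0.11 and -0.54. Kdm5b, not called in either fit, went from 0.12 to -0.47. Within set 3 alone, an alternative chosen after the data had been seen, 7 passed, Kdm4c being added, as did 49.8% of all genes. All Tet1 inputs are in that set, so that the comparison rests on it. Between the Tet2dRBD-KI and Tet2-KI inputs no member passed, against 3.14% of all genes, 1.35% higher and 1.79% lower (2545 genes had an unadjusted p under 0.05, among them 1 member), and Kdm4a was nearest at 0.24 (SE 0.07, adjusted p = 0.0887). The 4 endoderm markers were all higher in Tet2dRBD-KI, with a median of 1.62 against 0.02 over all genes. Of these only Gata6 passed, at 1.66 (adjusted p = 0.0214). Of the 8 ESC markers 1 was called lower and none higher, and no mesoderm, neural or fibroblast marker passed. The part of such cells in the comparison of the 2 Tet2 lines was not tested.

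The input levels of the members in library set 2 were set against their base composition. The GC content of the coding sequences ran from 44.7% (Kdm4c) and 45.8% (Kdm3a) to 59.1% (Kdm4b) and 61.7% (Kdm6b), with a median of 51.8% over all coding genes. In Tet2 replicate 2 the input of Kdm6b stood 1.20 above the mean of replicates 3 and 4 on the log2 scale and that of Kdm3a at -0.82, and in Tet2dRBD replicate 2 the values were 1.15 and -1.54. Across the 10 members, GC content and this difference correlated at r = 0.79 in Tet2 and 0.90 in Tet2dRBD, against 0.44 and 0.62 over 13106 genes. For replicate 1 the values over the members were 0.23 and 0.30. Genes are not independent replicates, and the points share their libraries. The log2 ratio of IP over input itself correlated with GC content over the members at -0.77, -0.87, 0.23 and 0.62 in Tet2dRBD replicates 1 to 4, between -0.53 and -0.13 in the 4 Tet2 pairs, and at -0.47 and -0.40 in Tet1. Over 13106 genes the values for Tet2dRBD were smaller in size, at -0.36, -0.33, -0.06 and 0.24, and those for the other pairs lay between -0.32 and -0.02. The part of base composition in the results was not tested.

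**Figure D5:**
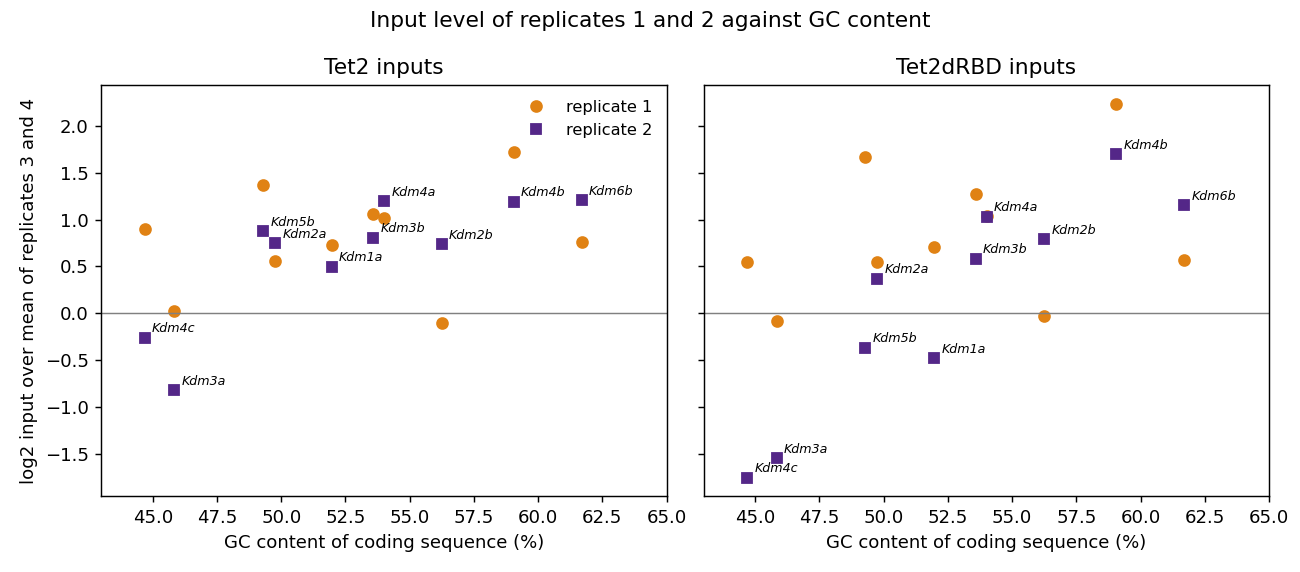
log2 of the input level (TPM + 1) of replicates 1 and 2 over the mean of replicates 3 and 4 of the same line, against the GC content of the coding sequence, for the 10 genes in Tet2 (left) and Tet2dRBD (right). Squares (replicate 2) climb from the genes of low GC content, Kdm4c and Kdm3a, to Kdm6b and Kdm4b, with r = 0.79 and 0.90.

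Other genes of histone methylation held further calls, as described here by counts and medians. Of 17 other JmjC and LSD family genes 14 were tested, and 2 were higher in IP in Tet1 (14.3%, against 2.72% of all genes), 5 in Tet2 (35.7%, against 14.6%) and 3 in Tet2dRBD (21.4%, against 7.4%), with medians of 0.04, 0.28 and 0.22 against -0.04, 0.00 and -0.01 over all genes. Kdm6a, which removes the same mark as Kdm6b, had 1.91 in Tet1 (adjusted p = 0.0347), 1.37 in Tet2 (adjusted p = 0.00708) and 1.11 in Tet2dRBD (adjusted p = 0.0319), and Jmjd1c 2.28, 1.46 and 1.46 (adjusted p = 0.0276, 0.00748 and 0.015). Their mean Tet2 inputs were 1.54 and 2.84 TPM, against 9.51 for Kdm4c, the lowest member. Among 18 tested histone methyltransferases that oppose the members, 6 were higher in Tet2 (33.3%, median 0.46), with Ash1l at 1.43 (adjusted p = 0.00178) and Setd2 at 1.47 (adjusted p = 0.0104), and 2 each in Tet1 and Tet2dRBD (11.1%). Ash1l was near the floor, with a mean Tet2 input of 0.52 TPM and a mean log2 ratio of TPM + 1 of 0.87. Setd2 had 3.02 TPM and 1.51. Of 11 tested partners of LSD1 only the deacetylase Hdac2 was higher in Tet2, at 0.84 (adjusted p = 0.0461), a share of 9.09% that is below that of all genes.

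Transcripts for the supply of 2-oxoglutarate, the cosubstrate of the JmjC members and of Tet, held calls in the other direction. Of 13 tested, none was higher in any line and 6 were lower in Tet2 (against 18.5% of all genes), 6 in Tet2dRBD (against 12.1%) and 1 in Tet1 (against 3.18%), while the other genes of the list did not pass, with medians of -0.36, -0.31 and -0.21. Idh1, an isocitrate dehydrogenase, had -0.67 in Tet2 (adjusted p = 0.00165). By TPM + 1 its mean log2 ratio in Tet2 was -0.34 ± 0.25 (SD), with IP above input in 1 of 4 pairs. Of 14 other dioxygenases of this class 2 were higher in Tet2 (14.3%, against 14.6% of all genes) and 1 was lower (against 18.5%). Neither share exceeded that of all genes. Among the higher ones was Alkbh8, a tRNA modification enzyme, at 1.91 (adjusted p = 0.00276). It was near the floor, with a mean Tet2 input of 0.505 TPM and a mean log2 ratio of TPM + 1 of 1.17. The lower one was Egln3, an oxygen sensor, at -0.50 (adjusted p = 0.00486). Its mean log2 ratio of TPM + 1 in Tet2 was only -0.18 ± 0.36 (SD), and IP lay above input in 2 of 4 pairs. No gene of these lists passed for the difference between Tet2 and Tet2dRBD.

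The members did not vary together in full. Over the 10 pairs, which share library sets, their log2 ratios correlated from r = -0.16 (Kdm4b and Kdm4c) to 0.97 (Kdm2b and Kdm6b), and Kdm3a and Kdm4c, the members of lowest GC content, had r = 0.95. Over 8466 genes with a mean input of at least 5 TPM, those most like Kdm5b across the pairs were Cand1 (r = 0.97), Ikbkap (0.96) and Cyfip1 (0.96), and those most like Kdm2a were Bcl7a (0.98), Tmed8 (0.98) and Ddx19b (0.97).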

How the data were processed

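The authors trimmed reads with Trimmomatic, checked them with FastQC and quantified RefSeq genes of mm9 with RSEM, as the study's methods give it. The submitters' processing notes name the same tools and Bowtie2. The methods give Bowtie2 for finding reads of rRNA and tRNA, which were removed, and AfterQC for removing low-complexity reads. Tool versions are not given in the sources used here. The labels name polyA RNA and 18 cycles of PCR, which can distort levels. Each deposited file held expected counts (not normalized), an FPKM column (not used) and TPM to which the authors had added a pseudocount of 1. TPM was taken here as the deposited value minus 1. Groups, replicate numbers and pairs follow the sample labels, and library sets the numbering of the deposited data. Expected counts were rounded and fitted with edgeR 4.0.16 in R 4.3.3 by the quasi-likelihood test with TMM scaling. Genes needed 1 CPM in at least 2 libraries. The fit over 20 libraries had 7 residual degrees of freedom, and the SE is the estimate over the root of its F statistic. Inputs were fitted by line and library set. Each IP was blocked with the input of the same line and number, a pairing that comes from the labels' numbers. Deviations of an IP and its input from their group means correlated at r between 0.60 and 0.87 in Tet2 and between 0.58 and 0.83 in Tet2dRBD. Those of other numbers reached 0.80 and 0.73, so this does not single out the pairs, and with 2 Tet1 pairs it checks nothing there. Replicates of a group differed by more than counting noise and were kept apart. Between replicates 3 and 4 the chi-square per gene was 3.41 and 3.64 in the Tet2 IPs and inputs, and 2.83 and 17.4 in those of Tet2dRBD. Between the 2 replicates of Tet1 it was 7.97 and 8.03. Replicates of different library sets differed far more, between 145 and 582. Whether replicates 3 and 4 are independent is not given in the labels. Sequences and GC content come from the gencode annotation of NCBIM37 (mm9), for the coding part only. Alternatives were limma 3.58.1 on log2(TPM + 1), the same with a pseudocount of 0.1, DESeq2 1.42.0, other blocks, filters and scalings, and leaving out each replicate. The members, gene lists and comparisons were chosen with earlier results of these data known. The named genes are all members and, of each other list, up to 4 with the smallest adjusted p in Tet2. The values of 1 gene that this rule names are not reported here. The base composition values were added after the data had been seen. Setd1b was the 1 listed gene not matched. Depth between 21078995 and 37576638 counts per library left the lowest member at 301 counts (Kdm4c), so counting error was small beside the spread between replicates of different library sets.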

Additional observations from a re-analysis of the deposited data

Results flagged for a closer look

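In the 60 groups of 4 values examined (each member's input TPM, IP TPM and log2 ratio in the Tet2 and Tet2dRBD lines), 6 held a sample far from the others. The rule's rate of about 1 in 20 holds for independent values. Here replicates 3 and 4 share a library set and the groups share libraries, so that rate does not apply. For Kdm2b, replicate 2 stood far above the other 3 in the Tet2 inputs (79.2 TPM), in the Tet2 IPs (171 TPM) and in the Tet2dRBD inputs (85.8 TPM). For Kdm5b, replicate 1 stood far above in the Tet2dRBD inputs (153 TPM) and in the Tet2dRBD IPs (227 TPM). For Kdm4c, replicate 1 stood far above in the Tet2 inputs (15.7 TPM). Each of these is the replicate that makes up a library set of its own in its line, so the sample and the set cannot be told apart.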

How the results depend on the processing

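For IP against input in Tet2, where 5 members passed, none passed without the replicate block, 8 passed with limma on log2(TPM + 1) and 8 on log2(TPM + 0.1), and 2 with replicates 3 and 4 summed. Leaving out 1 replicate gave between 1 and 6. For Tet1 IP against input, where 0 passed, 9 passed when only the Tet1 libraries were fitted (6 higher, and Kdm2a, Kdm3b and Kdm6b lower, in a fit in which 55.0% of all genes passed), between 0 and 1 with 1 replicate left out, and 2 with replicate number 2 left out of both Tet2 lines, an alternative chosen after the data had been seen. For Tet2dRBD, where 0 passed, 2 passed with DESeq2, 5 with limma on either pseudocount and 3 with library totals in place of TMM. Leaving out 1 replicate gave between 0 and 1, and leaving out number 2 in both lines gave 1. For the difference between the Tet2 lines and between Tet1 and Tet2, 0 members passed under every alternative run. For the inputs of Tet2dRBD against Tet2, 0 passed, also with a replicate block, whereas leaving out 1 replicate gave between 0 and 2 and library set 3 alone, also chosen after the data had been seen, gave 1. For Tet1 against Tet2 inputs, where 6 passed, 0 passed without the library set term, leaving out 1 replicate gave between 4 and 8, and Kdm3b (-0.11), Kdm4a (-0.11) and Kdm4b (-0.54) reversed without the term. The members' median log2 ratio in Tet1 moved from 0.32 to 0.24 when centred on all expressed genes. The cause of these changes was not tested, beyond the fewer libraries that some of the fits hold. With 2 Tet1 pairs, a fit without 1 of them takes the other to vary like the Tet2 lines. Precision is limited by the number of pairs and not by depth.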
